A study of Mus musculus with 4 samples.

Results

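The genes described here carry out 3 linked programmes of protein and redox homeostasis: the unfolded protein response of the endoplasmic reticulum (ER), the heat shock response and the oxidative stress response. The list names 42 genes, 23 for the unfolded protein response, 13 for heat shock and 6 for oxidative stress, out of 45526 genes or unnamed transcripts on the array. Each was found through the accession of its probes and represented by its brightest probe. All 42 were on the array and passed the filter on dim probes, so all are among the 20505 genes tested, and 40 were above background on all 4 arrays.

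The samples are CD4+ T cells of male C57BL/6 mice, sorted from spleen as naive cells. The donors were wild type (WT) or Irf4-/- mice, called Irf4 KO below. Both genotypes received the same stimulus, an antibody to the CD3 chain of the T cell receptor at 1 µg per ml with syngeneic, mitomycin C-treated antigen-presenting cells. RNA came from live CD4+ cells re-sorted at day 2, the time in the titles and design text, although the culture protocol names shorter incubations. There are 2 arrays per genotype, and the labels speak of 2 independent experiments without saying how many mice were used or how old they were. If the samples of a genotype share animals, the p-values below measure only the spread between these arrays. In RNA from a mixed population, fewer cells that express a gene and less RNA per cell cannot be told apart.

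Irf4 is a transcription factor that antigen receptor signals induce. A lymphocyte that starts to divide and to secrete cytokines loads its ER with new protein. The membrane sensors of the ER, encoded by Ern1 (IRE1), Atf6 and Eif2ak3 (PERK), detect unfolded protein. IRE1 splices the messenger RNA of Xbp1 into the form that encodes an active transcription factor, and XBP1 and ATF6 raise the chaperones, disulfide isomerases and degradation factors of the ER. The heat shock factor HSF1 controls chaperones of the cytosol and mitochondria, and the factor NRF2 controls enzymes that detoxify oxidants. These probes measure total messenger RNA per gene, so they do not show Xbp1 splicing or the activity of any sensor.

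The promoters of these genes carry known response elements, and 10 stretches, those with an ER stress element and the shared heat shock element of Hspd1 and Hspe1, are printed here from RefSeq, build GRCm38.p6. A window from 250 bases before to 50 bases after the start site was at hand for 33 of the 42 members and for 27025 genes in all. The ER stress element, a CCAAT box and a CCACG half-site held apart by 9 bases (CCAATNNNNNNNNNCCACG, searched on both strands), was present in 8 of these 33 members and in 0.137% of all genes. It lay in 7 of the 12 ER chaperone and folding genes with a window and in the ubiquitin ligase gene Syvn1. Capitals mark the element. Matches on the opposite strand start with CGTGG, and the Hsp90b1 stretch holds 1 match on each strand.
Hspa5, chr2:34771940-34772089, plus strand: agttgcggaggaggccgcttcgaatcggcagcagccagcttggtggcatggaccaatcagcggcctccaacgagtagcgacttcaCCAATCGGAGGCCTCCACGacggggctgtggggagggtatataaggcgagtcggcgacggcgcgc
Hsp90b1, chr10:86705520-86705669, minus strand: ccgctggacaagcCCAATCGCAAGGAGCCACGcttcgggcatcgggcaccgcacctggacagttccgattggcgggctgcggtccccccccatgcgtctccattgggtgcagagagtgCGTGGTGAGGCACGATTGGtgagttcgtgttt
Calr, chr8:84847057-84847116, minus strand: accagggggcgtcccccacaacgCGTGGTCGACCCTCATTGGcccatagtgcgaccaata
Canx, chr11:50325779-50325838, minus strand: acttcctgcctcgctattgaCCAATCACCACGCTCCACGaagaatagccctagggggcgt
Creld2, chr15:88819500-88819559, plus strand: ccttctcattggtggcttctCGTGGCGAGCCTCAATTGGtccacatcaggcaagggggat
Dnajc3, chr14:118937807-118937866, plus strand: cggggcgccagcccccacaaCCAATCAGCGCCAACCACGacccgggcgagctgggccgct
Pdia6, chr12:17266471-17266530, plus strand: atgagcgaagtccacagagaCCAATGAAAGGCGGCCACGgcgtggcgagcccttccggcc
Syvn1, chr19:6046506-6046565, plus strand: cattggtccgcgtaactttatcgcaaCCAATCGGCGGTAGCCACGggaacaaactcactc

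The heat shock element, the units GAA, TTC and GAA in a row with 2 free bases between units, searched on both strands, was found in 3 of the 33 members and in 0.662% of all genes. The members were Hspd1, Hspe1 and Hsph1. Hspd1 and Hspe1 encode the mitochondrial chaperonin HSP60 and its cofactor HSP10. They lie head to head on chromosome 1, and the element is the same stretch of DNA read on opposite strands. Capitals mark 2 overlapping matches in each line.
Hspd1, chr1:55088038-55088097, minus strand: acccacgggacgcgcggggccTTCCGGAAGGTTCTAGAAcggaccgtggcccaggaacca
Hspe1, chr1:55088038-55088097, plus strand: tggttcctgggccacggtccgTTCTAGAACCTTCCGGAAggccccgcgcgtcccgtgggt

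Other elements were searched in the same way. The core of the antioxidant response element (TGACNNNGC) was present in 11 of the 33 members and in 14.0% of all genes. The 11 were the oxidative stress genes Gclm, Srxn1 and Txnrd1 and 8 genes of the other programmes (Calr, Dnajb1, Ern1, Herpud1, Hsph1, Pdia3, Ppp1r15a and Sdf2l1). An IRF pair (GAAA, 2 free bases, GAAA) lay in the Ppp1r15a window alone, 1 of 33 members against 3.99% of all genes. The composite ETS and IRF element (GGAA, 2 free bases, GAAA) lay in 2 members, Dnajb11 and Eif2ak3, against 3.16%. The AP-1 site (TGANTCA) lay in 5 members against 8.97%, and the core of the unfolded protein response element (TGACGTGG) in none of the 33 windows against 0.714%. These are letter matches within a short window and say nothing of binding in these cells.

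Of the 42 genes, none passed the test over all genes (limma, Benjamini-Hochberg adjusted p under 0.05), where 151 of 20505 genes or 0.736% did. At an unadjusted p under 0.05 there were 5 (11.9%), against 11.4% of all genes tested, so the share of members with small p-values was near that of the array as a whole. These 5 were Xbp1, Hmox1, Bag3, Nqo1 and Hspb1, the last of which entered the test only through the genotype where it was high. With only genes above background on all 4 arrays, 5 of 40 members had such a p, Hspa1a in place of Hspb1, as did 2015 of 18563 genes. Both Irf4 KO arrays lay below both WT arrays for 10 members (23.8%, against 21.3% of all genes) and above them for 6 (14.3%, against 17.9%). Differences were under 0.5 on the log2 scale in either direction for 36 of the 42 (85.7%, against 83.6% of all genes). The median difference, Irf4 KO minus WT, was -0.08 over the 42 and -0.02 over all genes tested.

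**Figure D1:**
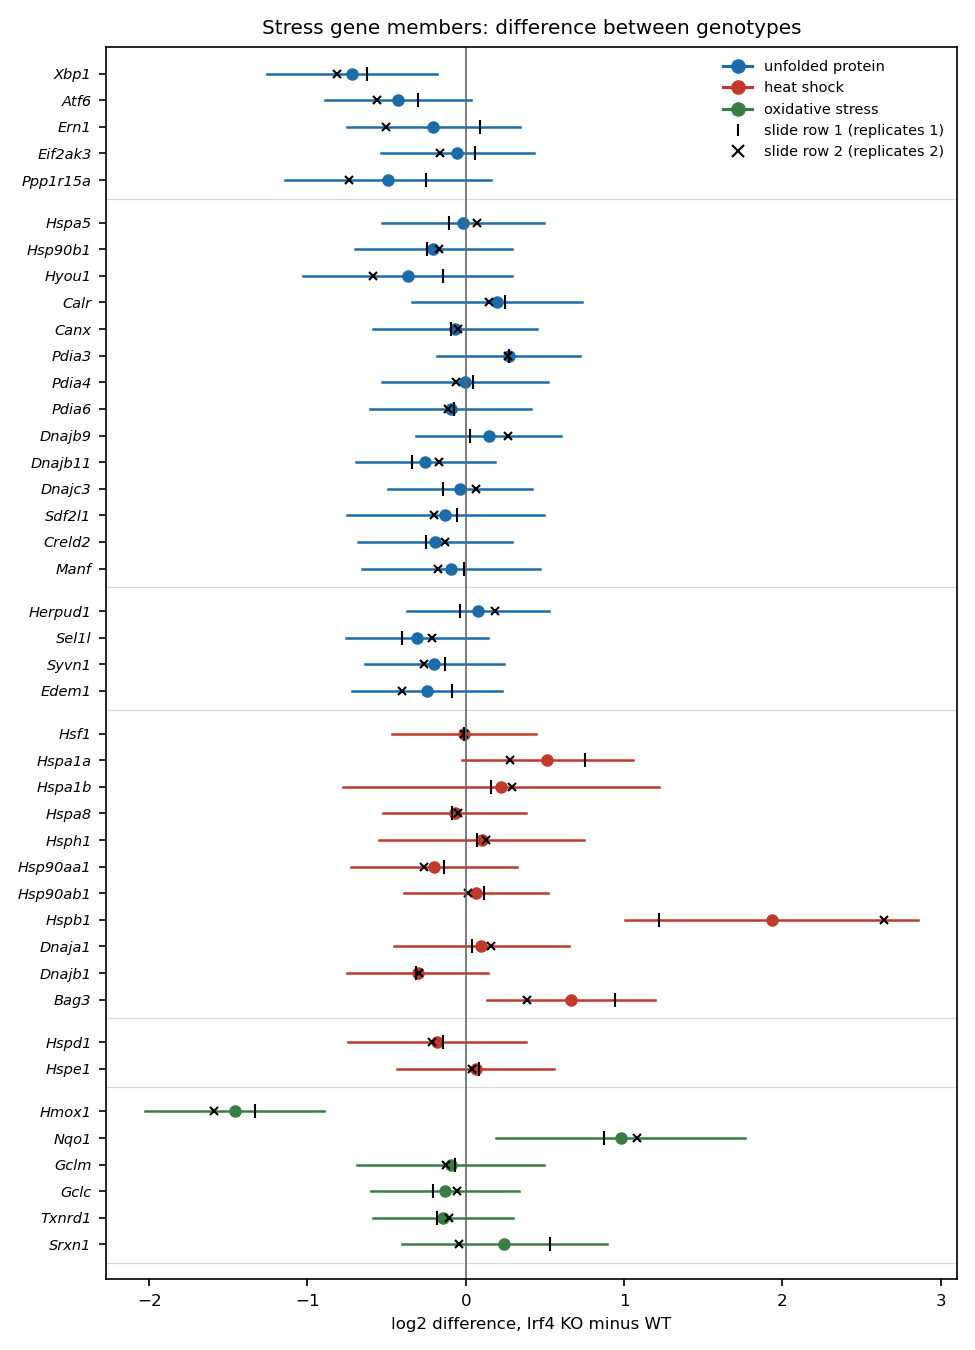
Log2 difference between Irf4 KO and WT (horizontal axis) for each of the 42 genes, grouped by role, with its 95% interval from limma; black marks give the difference within slide row 1 (replicates 1) and slide row 2 (replicates 2). Most intervals cross 0, and those of Xbp1, Hmox1, Hspb1, Bag3 and Nqo1 do not.

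Each level below is the log2 of a probe's signal after division by the 75th percentile of its array, and n = 2 arrays per genotype throughout. Differences have limma's moderated standard error (SE) and 95% interval, which are not adjusted for the number of genes. Irf4 itself, the deleted gene, read 5.03 and 4.74 on the WT arrays and 4.23 and 4.04 on the Irf4 KO arrays, a difference of -0.75 ± 0.20 (SE; limma, adjusted p = 0.231), and its second probe differed by -0.37. No source used here places these probes inside or outside the deleted stretch, so the signal checks nothing about the deletion. All 4 arrays lay on 1 slide. Replicates 1 of both genotypes shared slide row 1 and replicates 2 shared row 2, and differences within rows are given beside the main ones. Slide column and genotype cannot be told apart, since both WT arrays lay in one column and the Irf4 KO arrays in others.

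Of T cell markers, 7 of the 8 listed were on the array and all 7, with Cd3e and Cd4 among them, were above background on every array. Their summed linear signal was 889 to 1018 in WT and 984 to 1051 in Irf4 KO, in units of the array's 75th percentile. Within that sum the genotypes separated for Cd5, which differed by 0.86 (limma, adjusted p = 0.130), and Cd28, by -0.48 (adjusted p = 0.407). They also separated for Lck (0.12) and Cd3g (-0.12), and the rest overlapped. Cd8a was above background on 1 array per genotype, while Cd8b1 was above background on all 4 and differed by -0.98 (limma, adjusted p = 0.0979). The sum of both was 8.77 to 9.29 in WT and 4.45 to 4.76 in Irf4 KO. Sums for B cell markers were 1.33 to 2.48 in WT and 1.62 to 4.54 in Irf4 KO. Among them Cd22 separated the genotypes, with a difference of 0.56 (limma, adjusted p = 0.324). The other B cell markers overlapped and went both ways, with Ms4a1 at 1.13 and Cd79a at -0.84. Sums for NK cell markers were 2.74 to 3.33 and 7.62 to 9.81, with Ncr1 above background on no array. The highest levels in that sum were those of Klrd1 and Eomes, its only 2 tested genes. They differed by 1.87 and 1.44 (limma, adjusted p = 0.157 and 0.280). Klrb1c and Klra8 were too dim to be tested and overlapped between genotypes. The sum thus rests mostly on Klrd1 and Eomes, and a change in NK cells was not tested. Of erythroid genes, both Irf4 KO arrays lay above both WT arrays for the globin genes Hba-a1 and Hbb-bt. Hba-a1 differed by 0.95 (limma, adjusted p = 0.591), at 0.12 in slide row 1 and 1.78 in row 2. Hbb-bt differed by 1.56 (adjusted p = 0.398), at 0.53 and 2.59 by row. It was above background on only 1 WT array and passed the filter through the Irf4 KO arrays alone, so its p-value is not read as support for a difference. The CD8 T cell and NK cell sums, Cd5, Cd28, Cd22 and these globin genes separated the arrays by genotype. Their part in the differences below was not tested.

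The sensors and regulators of the unfolded protein response came first in the order of roles. Xbp1, the transcription factor downstream of IRE1, read 5.39 and 5.21 on the WT arrays and 4.76 and 4.40 on the Irf4 KO arrays. Both Irf4 KO arrays lay below both WT arrays. The difference was -0.72 ± 0.21 (SE), a 1.65-fold lower mean, with a 95% interval of -1.26 to -0.18 and an adjusted p of 0.277 (limma). It was -0.62 in slide row 1 and -0.81 in row 2. The other 2 Xbp1 probes, also above background on all arrays, differed by -0.60 and -0.53. Xbp1 passed the test in 2 of 13 alternative settings, normexp background correction (adjusted p = 0.0269) and a robust variance trend in limma (adjusted p = 0.0404), and its adjusted p reached 0.970 in another.

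Xbp1 is also a defining gene of plasma cells. Of 8 plasma cell markers, 5 were tested and none passed (limma), and Jchain and Tnfrsf17 were above background on no array. The summed signal of the 8 was 32.6 to 38.4 in WT and 20.6 to 23.6 in Irf4 KO, most of it from Irf4 itself, and without Irf4 it was 5.71 to 5.82 and 4.11 to 4.81. Of the tested markers only Mzb1 was higher in Irf4 KO, at 1.31. Prdm1 differed by -1.88, Derl3 by -0.41 and Txndc5 by -0.29. For these 3 and Irf4 both Irf4 KO arrays lay below both WT arrays. Mzb1 overlapped between genotypes and was above background on only 1 WT array, so it passed the filter through the Irf4 KO arrays alone. The WT arrays lay 2.50 apart for Prdm1, and its difference was -0.73 in slide row 1 and -3.03 in row 2. The part of such cells in the Xbp1 difference was not tested.

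Atf6, the sensor that is cut in the Golgi to release a transcription factor, read 0.58 and 0.79 on the WT arrays and 0.28 and 0.23 on the Irf4 KO arrays. The groups did not overlap, and the difference was -0.43 (95% interval -0.89 to 0.03; limma, adjusted p = 0.481). Ppp1r15a encodes GADD34, which reverses the translational arrest imposed by PERK. It read 2.49 and 3.09 in WT and 2.24 and 2.35 in Irf4 KO. The 2 genotypes did not overlap, but the WT arrays lay farther apart (0.60) than WT replicate 1 lay from either Irf4 KO array. Its difference of -0.49 (-1.14 to 0.16; limma, adjusted p = 0.602) shrank to -0.20 without WT replicate 2 and grew to -0.79 without WT replicate 1.

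The other sensors overlapped between genotypes. Ern1 read -1.94 and -1.66 in WT and -1.85 and -2.16 in Irf4 KO. Eif2ak3 read 0.64 and 0.92 in WT and 0.70 and 0.76 in Irf4 KO. Their differences were -0.21 and -0.05, with 95% intervals of -0.75 to 0.34 and -0.53 to 0.43, and each took opposite signs in the 2 slide rows. All 5 members of this group had negative differences, with a median of -0.43, against 53.3% of all genes tested. Of the 5, 3 were negative in both slide rows, against 33.5% of all genes.

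**Figure D2:**
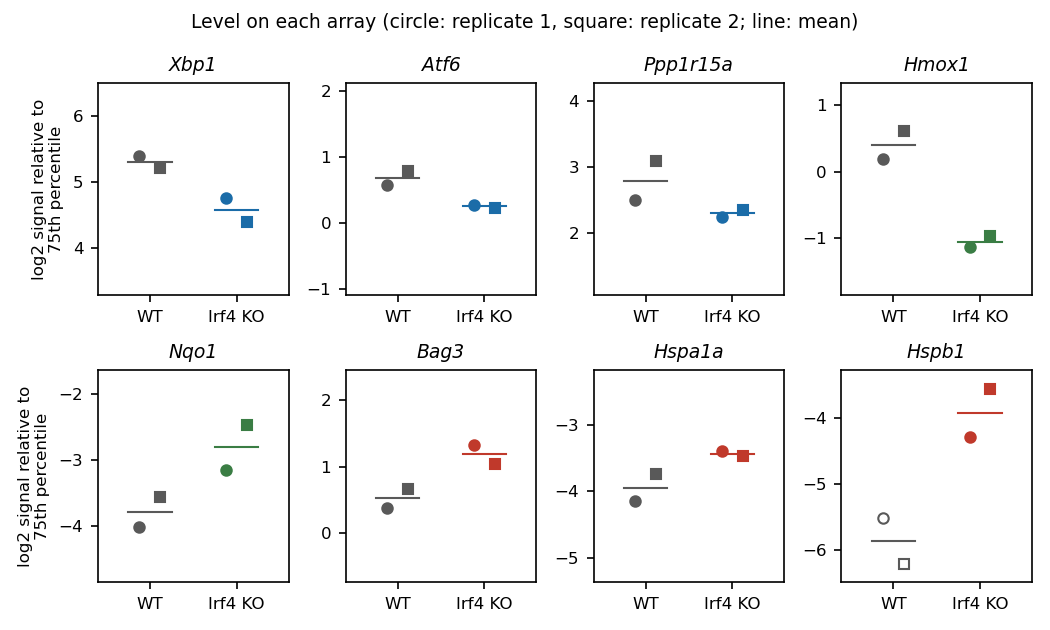
Level on each array (log2 signal relative to the array's 75th percentile) for 8 genes, with WT in grey and Irf4 KO in colour; circles are replicates 1, squares replicates 2, lines the mean, and open symbols a genotype in which the probe was above background on neither array. Each panel spans the same height, and the largest gap between genotypes among genes measured in both is that of Hmox1.

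The 14 chaperones and folding enzymes of the ER differed less. Their differences ran from -0.37 to 0.27 with a median of -0.08, and 11 of the 14 overlapped between genotypes, against 60.8% of all genes tested. None of the 14 passed the test over all genes (limma, adjusted p from 0.724 to 0.998), and none had an unadjusted p under 0.05. For 13 of the 14 (92.9%) the 95% interval, not adjusted for the number of genes, lay wholly between -1 and 1, short of a 2-fold change. The share was 72.2% of all genes tested and 77.4% of those above background on all 4 arrays, as all 14 were. The exception among the 14 was Hyou1, the large HSP70 relative of the ER, with an interval of -1.03 to 0.29.

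Hspa5 encodes BiP, the central HSP70 of the ER lumen and a classical target of the ER stress element. It read 6.22 and 5.90 in WT and 6.11 and 5.97 in Irf4 KO. The Irf4 KO arrays lay between the WT arrays, and the difference was -0.02 ± 0.20 (95% interval -0.53 to 0.49). Its other 2 probes differed by 0.03 and by less than 0.01. Hsp90b1, the HSP90 of the ER, read 6.32 and 6.06 in WT and 6.08 and 5.89 in Irf4 KO, a difference of -0.20 with overlapping groups. Pdia6, a disulfide isomerase, read 6.20 and 5.98 against 6.13 and 5.87. Canx, the membrane lectin chaperone of the calnexin cycle, read 5.90 and 5.62 against 5.80 and 5.57. In all 4 genes the gap between the 2 WT arrays exceeded the difference between the genotypes.

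The ER chaperone genes Pdia3, Dnajb9 and Dnajb11 separated the genotypes by small amounts. The disulfide isomerase gene Pdia3, which works with the calnexin cycle, differed by 0.27 (0.27 in both slide rows), and its second probe by 0.21. Dnajb9, encoding a cochaperone of BiP, differed by 0.15, but its second, dimmer probe by -0.08. Dnajb11, encoding another cochaperone of BiP, differed by -0.25, and a second probe by -0.25. The remaining Dnajb11 probe was above background on no array. The remaining members were Calr (0.20), Pdia4 (-0.0075), Dnajc3 (-0.04), Sdf2l1 (-0.13), Creld2 (-0.19) and Manf (-0.09), and each overlapped between genotypes.

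The 8 genes with a printed ER stress element (Hspa5, Hsp90b1, Calr, Canx, Creld2, Dnajc3, Pdia6 and Syvn1) had differences from -0.20 to 0.20 with a median of -0.08. Of the 8, 7 overlapped between genotypes (all but Syvn1), against 60.8% of all genes tested, and no 95% interval among the 8 reached beyond -0.70 or 0.73.

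ER-associated degradation removes proteins that fail to fold. Its 4 members differed by -0.31 to 0.08. Sel1l and Syvn1 encode the adaptor and the ubiquitin ligase of the retrotranslocation complex, and Edem1 encodes a lectin that selects substrates. Both Irf4 KO arrays lay below both WT arrays for Sel1l (-0.31), Syvn1 (-0.20) and Edem1 (-0.24), and limma's adjusted p lay between 0.657 and 0.830 for the 3. A second, dimmer probe gave -0.02 for Sel1l and -0.04 for Edem1. Herpud1, a stress-induced scaffold of the same complex, differed by 0.08 on its brightest probe and by 0.40 on the other.

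Across the 23 unfolded protein response genes 19 differences were negative (82.6%), against 53.3% of all genes tested, and 14 (60.9%) were negative in both slide rows, against 33.5%. The median was -0.13, or -0.09 in row 1 and -0.17 in row 2. Over the 13 alternative settings it stayed negative, from -0.25 to -0.05, but the count of negative members was 12 of 23 without WT replicate 1 and 14 of 23 without Irf4 KO replicate 2. The genes with the most negative values were Xbp1, Ppp1r15a, Atf6 and Hyou1.

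Heat shock genes differed by 0.06 in the median, with 8 of 13 positive and 5 negative (38.5%, against 53.3% of all genes tested). Of the positive ones, Hspb1 and Hspa1b passed the filter through the Irf4 KO arrays alone. With only genes above background on all 4 arrays, 5 of 11 were negative, against 52.9% of all such genes. Without WT replicate 2, without Irf4 KO replicate 1 and with median scaling the median of the 13 was negative, at -0.08, -0.08 and -0.05. Median scaling moved the median of all genes by -0.11, and relative to all genes the heat shock median was 0.08 there. Hsf1, the master regulator of the response, read 2.67 and 2.53 in WT and 2.66 and 2.52 in Irf4 KO. Its difference was -0.01 (95% interval -0.46 to 0.44), and -0.01 in slide row 2.

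The constitutive chaperones differed little. Hsp90ab1, the constitutive cytosolic HSP90, read 9.19 and 9.11 in WT and 9.30 and 9.12 in Irf4 KO. Hspa8, the constitutive cytosolic HSP70, read 7.94 and 7.78 against 7.85 and 7.73, and its 4 probes differed by -0.07 to 0.08. The neighbours Hspd1 (7.32 and 7.04 against 7.18 and 6.82) and Hspe1 (6.69 and 6.49 against 6.77 and 6.53) differed by -0.18 and 0.06. All 4 genes overlapped between genotypes, and their intervals lay between -0.74 and 0.56. The inducible HSP90 gene Hsp90aa1 (-0.20), the nucleotide exchange factor gene Hsph1 (0.10) and the cochaperone gene Dnaja1 (0.10) also overlapped. Dnajb1, encoding the stress-induced HSP40, did not (5.63 and 5.49 against 5.31 and 5.19), with a difference of -0.30 (-0.75 to 0.14; limma, adjusted p = 0.658). A second, dimmer Dnaja1 probe, above background on all 4 arrays, differed by -0.09. The remaining Dnaja1 probe was above background on no array.

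Bag3, Hspb1 and Hspa1a separated the genotypes in the other direction. Bag3, a cochaperone that couples HSP70 to selective autophagy, read 0.38 and 0.66 in WT and 1.33 and 1.05 in Irf4 KO. Both Irf4 KO arrays lay above both WT arrays. The difference was 0.66 ± 0.21 (SE), 1.59-fold, with a 95% interval of 0.13 to 1.19 and an adjusted p of 0.310 (limma). It was 0.94 in slide row 1 and 0.39 in row 2.

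Hspb1, the small heat shock protein HSP27 that holds unfolded proteins and binds actin, was above background on both Irf4 KO arrays and on neither WT array. It read -4.29 and -3.56 in Irf4 KO, near the lower limit of detection, and -5.51 and -6.21 in WT. The Irf4 KO mean was 1.43-fold above the lowest signal counted as above background on each WT array. That floor is the lowest over all probes, so it sets no strict minimum for the change in Hspb1. The fitted difference was 1.93 (limma, adjusted p = 0.117) and 0.39 with normexp background correction (adjusted p = 0.404). Since Hspb1 passed the filter through the Irf4 KO arrays alone, its place among the tested genes already required a difference, and none of its p-values is read as support for one.

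The inducible HSP70 genes Hspa1a and Hspa1b are near-identical neighbours, so signal may be shared between their probes. Hspa1a read -4.15 and -3.74 in WT and -3.40 and -3.47 in Irf4 KO, a difference of 0.51 (-0.03 to 1.05; limma, adjusted p = 0.470) that was 0.11 with normexp. Hspa1b, above background on 1 of 2 WT arrays, read -3.10 and -3.94 against -2.95 and -3.66 and overlapped between genotypes. Both genes lay close to the limit of detection in these cultures.

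**Figure D3:**
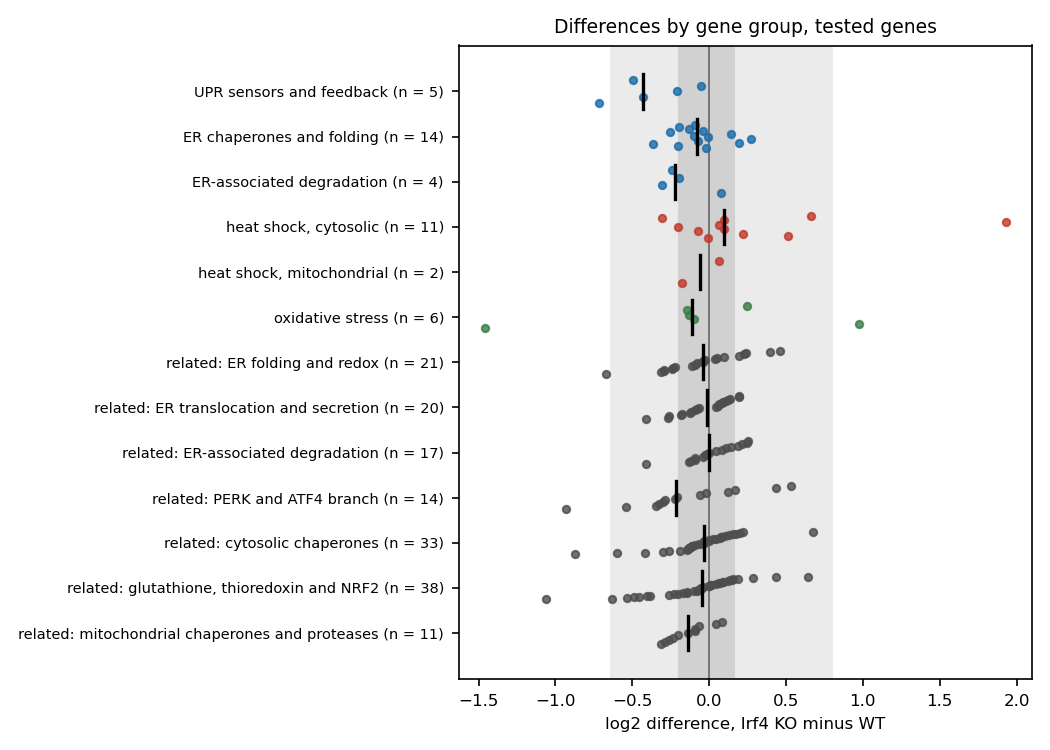
Log2 difference between Irf4 KO and WT for each tested gene (points) in the 6 role groups of the list (coloured) and in 7 lists of related genes (grey); black bars are medians, and the shaded bands span the middle 50% (dark) and 90% (light) of all 20505 genes tested. Of the 42 listed genes 21 lie within the dark band and 4 outside the light one.

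The oxidative stress genes held the largest negative difference of the list. Hmox1 encodes heme oxygenase 1, which breaks down heme to biliverdin, iron and carbon monoxide. It read 0.19 and 0.62 in WT and -1.14 and -0.97 in Irf4 KO. Both Irf4 KO arrays lay more than 1 log2 unit below both WT arrays. The difference was -1.46 ± 0.22 (SE), a 2.75-fold lower mean, with a 95% interval of -2.03 to -0.89. It was -1.33 in slide row 1 and -1.59 in row 2.

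The adjusted p of Hmox1 was 0.0764 (limma), the smallest of the 42. It passed under normexp (-1.04, adjusted p = 0.0030), the robust variance trend (adjusted p = 0.0027) and median scaling (-1.57, adjusted p = 4.74e-04). Over all 13 alternatives its difference ran from -1.68 to -1.04 and its adjusted p from 4.74e-04 to 0.621. Macrophages express Hmox1 highly. Of 8 myeloid and dendritic cell markers 4 were above background on all 4 arrays, and Lyz2, Itgax and Adgre1 were above background on no array. The summed signal of the 8 was 11.9 to 12.7 in WT and 10.6 to 11.6 in Irf4 KO, but its tested members went both ways. Itgam differed by -0.30, Csf1r by less than 0.01, Cd68 by 0.60 and Fcer1g by 0.90, and for Cd68 and Fcer1g both Irf4 KO arrays lay above both WT arrays (limma, adjusted p = 0.249 and 0.259). The part of such cells in the Hmox1 difference was not tested.

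Nqo1, a quinone reductase and classical NRF2 target, lay on the other side. It read -4.02 and -3.56 in WT and -3.14 and -2.48 in Irf4 KO, a low signal on all 4 arrays, and the groups did not overlap. The difference was 0.98 ± 0.30 (SE; 95% interval 0.19 to 1.76; limma, adjusted p = 0.312), at 0.87 and 1.08 by slide row and 0.41 with normexp. Gclm and Gclc encode the 2 subunits of glutamate cysteine ligase, which starts glutathione synthesis. Gclm read 2.29 and 1.96 against 2.22 and 1.84, and Gclc 1.23 and 1.32 against 1.02 and 1.26. Both overlapped, with differences of -0.10 and -0.13.

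Txnrd1, the cytosolic thioredoxin reductase, read 4.21 and 4.07 in WT and 4.03 and 3.96 in Irf4 KO, a small separation of -0.15 (-0.59 to 0.30). Srxn1, which restores overoxidised peroxiredoxins, read -1.29 and -0.69 against -0.77 and -0.73. Its WT arrays lay farther apart than any 2 arrays of different genotype, and its difference of 0.24 took opposite signs in the slide rows. Hmox1 and Nqo1, both known NRF2 targets, thus had differences of opposite sign, while Gclm, Gclc, Txnrd1 and Srxn1 stayed within 0.25 of 0. Neither Hmox1 nor Nqo1 passed the test in the reported setting, and the Nqo1 signal was low.

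Related genes outside the list were read in 7 lists of 154 tested genes, and none of these passed the test over all genes (limma), with 11 at an unadjusted p under 0.05 (7.14%, against 11.4% of all genes). Their medians lay between -0.22 and 0.0009. The PERK and ATF4 branch had the lowest median, with 10 of 14 genes negative (71.4%, against 53.3% of all genes tested). In it Ddit4, an inhibitor of mTORC1, differed by -0.93 (adjusted p = 0.197) and the pseudokinase gene Trib3 by -0.54. Asns, encoding asparagine synthetase and a target of ATF4, differed by 0.43, and Eif2ak2, the interferon-induced kinase PKR, by 0.53.

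Among 21 further ER folding and redox genes, the ER oxidase gene Ero1a differed by -0.67 (adjusted p = 0.337) and Mogs by -0.31, while Dnajc1 differed by 0.46 and Ero1b by 0.40. Translocation and secretion genes split evenly, 10 of 20 positive, with Ssr1 at -0.41 and Spcs2 at -0.26 and with Spcs1 and Ssr4 at 0.19 and 0.20. Further degradation genes were positive in 9 of 17, from Derl3 (-0.41) and Edem3 (-0.13) to Herpud2 and Ube2j1 (both 0.25). Ero1a was the one gene of these 3 ER lists to differ by more than 0.5.

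Among 33 other cytosolic chaperone genes, the HSP70 gene Hspa2 differed by -0.88 (adjusted p = 0.187) and the glucocorticoid-induced cochaperone gene Fkbp5 by -0.60. Hsf2, a second heat shock factor, differed by 0.67 (adjusted p = 0.321) and Dnajb2 by 0.22. Of 11 mitochondrial chaperone and protease genes 9 were negative (81.8%, against 53.3% of all genes tested). All lay within 0.32 of 0, with Clpx at -0.32, Yme1l1 at -0.29, Htra2 at 0.05 and Grpel2 at 0.08. Among 38 glutathione, thioredoxin and NRF2 pathway genes, the glutaredoxin gene Glrx differed by -1.06 (adjusted p = 0.116) and Maff, a small partner of NRF2, by -0.63. Prdx6, a peroxiredoxin, differed by 0.64 (adjusted p = 0.305) and the ferritin heavy chain gene Fth1 by 0.43. Of the biliverdin reductase genes, Blvrb differed by -0.53 (limma, adjusted p = 0.308). Blvra differed by 0.09 (adjusted p = 0.962) and overlapped between genotypes. For Glrx, Blvrb, Hspa2 and Fkbp5 both Irf4 KO arrays lay below both WT arrays, and for Hsf2 and Prdx6 both lay above.

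**Figure D4:**
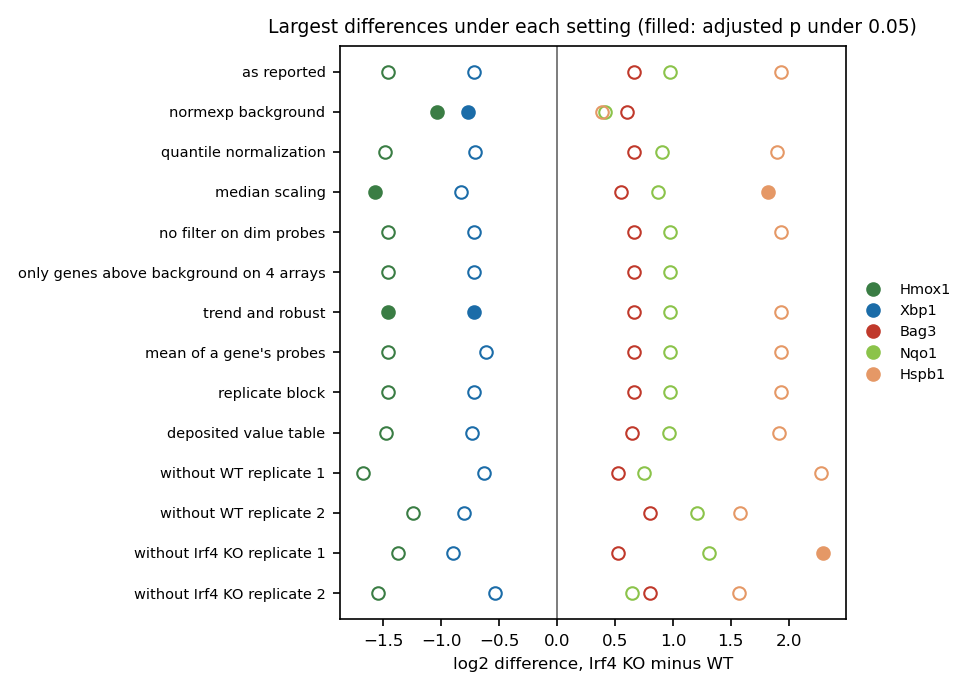
Log2 difference between Irf4 KO and WT (horizontal axis) for the 5 genes with an unadjusted p under 0.05, under the reported setting and each alternative; filled symbols passed an adjusted p of 0.05. All 5 keep their sign wherever a value was computed, and Hspb1 and Nqo1 shrink with normexp, to 0.39 and 0.41, while the filled symbols of Hspb1 rest on WT arrays below background.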

How the data were processed

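RNA was hybridised to 4 one-colour (Cy3) Agilent arrays. Per the file headers, the authors extracted spot intensity with Feature Extraction 11.0.1.1, while the submitters' processing notes name 9.1. The deposited intensity used here is the background-subtracted processed signal, not normalized between arrays. Control spots and outlier spots were left out. Values are log2 signal less the array's 75th percentile. The authors' deposited log2 table proved to hold the same values (shifted by at most 0.03) centred per probe on the mean of the 4 arrays, with column medians from -0.17 to 0.12, and served as an alternative.

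Accessions of 32994 of 56605 probes were named through a RefSeq table (GRCm38.p6), without coordinates since the array was designed on another build. Each gene was represented by its brightest probe. The 20505 whose probe exceeded background on both WT arrays, both Irf4 KO arrays or all 4 were tested. The test was limma 3.58.1 in R 4.3.3, with 2 residual and 2.95 prior degrees of freedom. It was checked on simulated data with changes of 2 log2 units or more and the same spread for every gene. That check does not cover the smaller differences of the members. Alternatives changed the background correction, scaling, dim-probe filter, variance model, probe rule, replicate block, source of values and the arrays used. Normexp used median spot signals, as the files hold no mean signal column, and arrays were left out with the tested genes kept.

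The members and lists were chosen with earlier results of these data known. Full values are given for members that passed or whose genotypes separated by at least 0.5, for 6 regulators and for up to 4 more per programme with the highest level. For related lists, the 2 largest differences per direction are given. Blvrb and Blvra were named after their values were seen. The number of arrays limits the precision. The sum of 1 further marker list is not reported here.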

Additional observations from a re-analysis of the deposited data

How the results depend on the processing

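Of the 42 genes 24 kept their sign in all 13 alternatives, and 3 passed the test in some of them. The number that passed was 2 with normexp (Hmox1 and Xbp1), 2 with trend and robust settings (Hmox1 and Xbp1), 2 with median scaling (Hmox1 and Hspb1) and 0 to 1 when an array was left out (Hspb1, without Irf4 KO replicate 1, where the lone array is assumed to vary like the WT pair). Hspb1 was below background on both WT arrays, so its passes support no change. Over all genes, where 101 were higher and 50 lower, the counts were 460 and 300 with normexp, 486 and 311 with trend and robust settings, 594 and 448 with median scaling, 179 and 81 with the deposited table, 0 and 1 with quantile normalization, and 0 and 0 (limma, 2099 at an unadjusted p under 0.05) without a filter on dim probes. With 1 array left out they ran from 0 to 331 and from 0 to 156, and both were 0 without WT replicate 1 (1864 unadjusted) or WT replicate 2 (1678 unadjusted). With replicate number, equal to slide row, as a block they were 0 and 0 (3195 unadjusted) and 0 members passed (5 unadjusted). The correlation across genes between deviations of arrays with the same number was 0.348, and 2 pairs do not establish pairing. The cause of these changes was not tested.

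Medians with median scaling were -0.19 for all members, -0.24 for unfolded protein and -0.047 for heat shock genes. With 1 array left out the unfolded protein median ran from -0.25 to -0.048 and the heat shock median from -0.083 to 0.18. Sign changes involved 18 genes whose reported differences were within 0.25 of 0. They were Pdia4 (0.027) and Hsp90ab1 (-0.014) with normexp, Hsf1 (0.0023) with quantile normalization, and Hspa5 (0.0054) and Hspa8 (0.023) with the mean of a gene's probes. With median scaling they were Herpud1 (-0.033), Hsph1 (-0.0096), Hsp90ab1 (-0.047), Dnaja1 (-0.0099) and Hspe1 (-0.047). With 1 array left out the differences ran from -0.16 to 0.15 for Pdia4, -0.030 to 0.15 for Hsp90ab1, -0.082 to 0.061 for Hsf1, -0.013 to 0.16 for Herpud1, -0.13 to 0.33 for Hsph1, -0.083 to 0.28 for Dnaja1 and -0.060 to 0.18 for Hspe1. They ran from -0.18 to 0.14 for Hspa5, -0.15 to 0.0093 for Hspa8, -0.21 to 0.069 for Canx, -0.23 to 0.034 for Pdia6, -0.14 to 0.068 for Dnajc3, -0.36 to 0.10 for Sdf2l1 and -0.29 to 0.10 for Manf. They ran from -0.29 to 0.10 for Gclm, -0.056 to 0.54 for Srxn1, -0.19 to 0.085 for Eif2ak3 and -0.20 to 0.64 for Hspa1b. Signals of Hspb1, Hspa1a, Hspa1b and Nqo1 were low, which limits their differences.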
